A study of Mus musculus with 10 samples.

Results

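The p53 family and the proteins that act on it most directly were examined probe by probe in whole mouse lung. The 6 genes are Trp53, Trp63 and Trp73, which encode the family's transcription factors, and Mdm2, Mdm4 and Ppm1d, which encode their main negative regulators. Every non-control array probe whose name in the files, or whose current symbol, was one of these genes was taken, which gave 17 probes of 41174. Probes were matched by name alone, and the genes were chosen with earlier results of these data known. Lungs of 5 p53-null mice were compared with those of 5 wild-type mice, described in the study's design as biological replicates. Both groups were male, 8 weeks old, labelled C57BL/6J, and breathed aerosolized saline for 30 min before the lung was frozen. The labels do not name the p53 allele, so the part of Trp53 that is missing is not given in the sources used here, and a probe outside that part does not check the genotype. One RNA sample was hybridised to each 1-colour Agilent array.

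The protein p53 is a transcription factor that is kept scarce in unstressed cells and accumulates after DNA damage, when it switches on genes for cell-cycle arrest, repair and apoptosis. Mdm2 is the ubiquitin ligase that sends p53 to the proteasome, Mdm4 is its relative that binds and masks the p53 activation domain, and Ppm1d encodes the phosphatase Wip1, which removes activating phosphates from p53 and its kinases. Mdm2 and Ppm1d are themselves induced by p53, which closes negative feedback loops. The relatives p63 and p73 are best known for development: p63 maintains basal cells of stratified and airway epithelia, and p73 is needed for multiciliated cells of the airway.

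The probes on which the results turn are single strands of 60 bases, shown as the files give them, because probes of 1 gene gave unlike differences between the genotypes. Coordinates are those of the files, on mm7. Trp53 has a probe printed in 10 spots, A_52_P491849 (chr11:69671206-69671265, plus strand) and a single-spot probe upstream of it, A_52_P781398 (chr11:69662031-69662089, plus strand). In A_52_P781398 capitals mark the 44 bases that match, on the opposite strand, the RefSeq promoter window of the neighbouring gene Wrap53 (GRCm38.p6, chromosome 11, 69580457 to 69580500). The Trp53 promoter window, on the plus strand, ends at 69580408. These bases therefore also lie downstream of the annotated Trp53 start. The array also holds 2 probes outside the selection that bear on Trp53: TC1467208 (chr11:69665192-69665251, plus strand), an unnamed transcript lying between the Trp53 probes and chosen after its values were seen, and U59758, which the files describe as a p53-variant mRNA and place on chromosome 17 (chr17:52578809-52578868, plus strand). The RefSeq gene table lists a Trp53 pseudogene on chromosome 17.
Trp53 A_52_P491849: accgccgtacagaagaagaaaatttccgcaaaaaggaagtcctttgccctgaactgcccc
Trp53 A_52_P781398: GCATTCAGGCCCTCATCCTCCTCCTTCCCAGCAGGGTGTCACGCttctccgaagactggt
TC1467208 A_52_P957260: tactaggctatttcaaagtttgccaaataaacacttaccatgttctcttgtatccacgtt
U59758 A_52_P133016: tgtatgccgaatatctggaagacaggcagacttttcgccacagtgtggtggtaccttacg
Ppm1d A_52_P26155: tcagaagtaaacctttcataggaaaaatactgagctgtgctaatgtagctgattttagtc
Ppm1d A_51_P131526: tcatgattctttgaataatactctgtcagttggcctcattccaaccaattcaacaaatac
The last pair lies less than 1 kb apart in Ppm1d (chr11:85416608-85416667 and chr11:85415741-85415800, both plus strand) and is shown because the pair gave unlike results.

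All levels below are log2 signals minus the 75th percentile of the same array, so a value of 0 is as bright as that percentile. Levels of different probes depend on each probe's chemistry and are not compared. Differences are p53-null minus wild type, with the SE and the Benjamini-Hochberg adjusted p from limma over the 31588 probes that were well above background on at least 5 of the 10 arrays. A probe was called at an adjusted p under 0.05. The number of arrays limits the precision, and in whole lung fewer cells of a type cannot be told apart from less RNA per cell.

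Several arrays stood apart. The share of spots well above background was 71.4% at the lowest and 84.0% at the highest, and array pairs correlated at 0.967 to 0.991. Wild-type array 5 deviated with probe GC content in the direction opposite to wild-type arrays 1, 3 and 4 (r across probes 0.354, against -0.310, -0.228 and -0.324). On wild-type array 2 r was 0.003, and on p53-null arrays it was 0.175, 0.203, 0.004, 0.094 and 0.023. The GC trend was thus not confined to wild-type array 5 and ran in part with genotype. Values without wild-type array 5 are given beside the member results whose call it changes. Of 12 squamous epithelial markers above background on at least 1 array, 10 had p53-null array 5 as the highest p53-null array and wild-type array 2 as the highest wild-type array. For Krt1 and Ivl neither array was. The skeletal muscle score was 2.97 on p53-null array 4, 2.89 on p53-null array 5 and 3.98 on wild-type array 2, and at most -1.11 on the other arrays; none of 11 tested skeletal muscle markers was called. All 13 lung tissue markers were above background on enough arrays to be tested, and none was called. Without wild-type array 5 the endothelial cadherin gene Cdh5 was called lower in p53-null lung (-0.48, limma adjusted p = 0.00251), against -0.33 (adjusted p = 0.195) with all arrays. Leukocyte markers moved with genotype: p53-null lung had higher levels of 7 of 13 neutrophil, 11 of 12 B cell and 9 of 14 T cell markers. None was called lower. The called shares were 53.8%, 91.7% and 64.3% of those tested, where 4.01% of all tested probes were called higher. Neutrophil scores ran from 0.06 to 1.30 on p53-null arrays and from -0.86 to -0.40 on wild-type arrays. B cell scores ran from 0.32 to 1.32 and T cell scores from 0.06 to 0.58 on p53-null arrays, against -1.33 to -0.25 and -0.70 to -0.13 on wild-type arrays. Each of these markers was well above background on at least 1 array, and their part in the results below was not tested.

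Of the 17 member probes, 14 were tested and 2 were called, both lower in p53-null lung. That is 14.3% of the tested members, where 7.11% of all tested probes were called (4.01% higher and 3.11% lower). The 2 called probes were the 10-spot probe of Trp53 and 1 probe of Ppm1d. Ranges of the groups did not overlap for 3 of the 14 probes, where this held for 9.16% of all tested probes. The median difference of the tested members was 0.048 on the log2 scale, and that of all tested probes was 0.037. Without wild-type array 5, 7 of the 14 were called, with 30.7% of all probes called.

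Trp53 itself gave 2 unlike readings. On the 10-spot probe the p53-null arrays read -3.15, -2.99, -3.11, -2.998 and -2.66, and the wild-type arrays read -1.67, -1.64, -1.54, -1.43 and -2.22. Every p53-null array was below every wild-type array, with wild-type array 5 between the main bodies of the groups. In p53-null lung the probe fell to 0.412 of the wild-type signal (log2 difference -1.28 ± 0.16, limma adjusted p = 0.00589), with a 95% interval of -1.63 to -0.93. It was well above background on all 10 arrays, so signal remained in the p53-null lungs.

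Between the 10 spots of 1 array the SD was 0.024 to 0.12 on the log2 scale, and at wild-type array 5 it was 0.11. The call was kept in all 10 fits that left out 1 array, with differences of -1.41 to -1.21, and without wild-type array 5 it was -1.41 (adjusted p = 0.000355). After removal of the GC trend, an alternative added after the data were seen, wild-type array 5 read -2.48, the other wild-type arrays -1.59 to -1.31 and the p53-null arrays -3.20 to -2.74.

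The upstream Trp53 probe did not pass the test. Its values were 0.60, 0.65, 0.43, 0.13 and 0.39 on p53-null arrays and -0.01, -0.34, 0.01, -0.25 and 1.24 on wild-type arrays. The groups overlapped through wild-type array 5, the highest of all 10. The difference was 0.31 ± 0.28 (limma adjusted p = 0.504), with a 95% interval of -0.30 to 0.92. Without wild-type array 5 it was 0.59 (adjusted p = 0.0085), and 60% of its bases are G or C, against 50% in the 10-spot probe. With the GC trend removed the difference was 0.060 with all arrays and 0.18 without wild-type array 5, and neither was called. The nearest tested Wrap53 probe, for the gene whose promoter window shares 44 bases with this probe, differed by 0.0049 ± 0.076.

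U59758 separated the genotypes completely. The p53-null arrays read -8.43, -9.82, -8.85, -9.19 and -9.10, none of them well above background. The wild-type arrays read -3.81, -3.86, -3.66, -3.60 and -3.92, all well above background. Wild-type array 5 lay just below the other wild-type arrays and far from the p53-null arrays. The p53-null signal was taken as no lower than the dimmest probe well above background on each array. By that bound the level was at least 10.01-fold lower in p53-null lung. The probe entered the test through the wild-type arrays alone, so a difference between the genotypes was built into its selection. No p-value is therefore given for it.

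TC1467208 moved the other way. It read -1.43, -1.13, -1.11, -1.66 and -1.12 on p53-null arrays and -4.57, -5.23, -4.84, -3.98 and -4.56 on wild-type arrays. The groups were far apart, and wild-type array 5 read with the wild-type arrays. The difference of 3.35 ± 0.21 (limma adjusted p = 8.54e-05) is a 10.18-fold higher signal in p53-null lung. The Trp53 locus thus held probes that were higher, lower and not called within 10 kb of each other, and the labels do not say which part of the gene the allele alters.

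**Figure D1:**
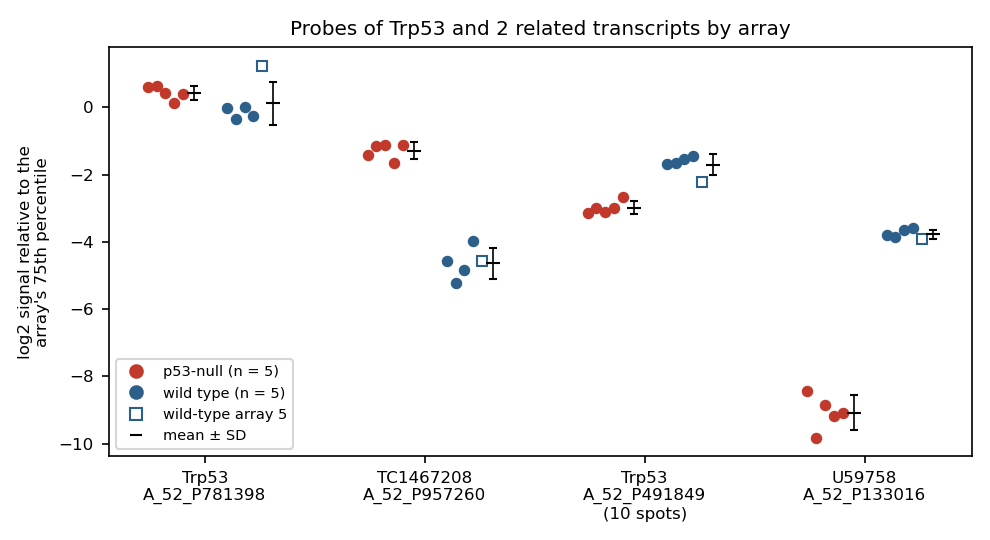
Log2 signal relative to the 75th percentile of each array for the Trp53 probes and the related TC1467208 and U59758, with p53-null arrays left of wild-type arrays, 1 point per array, and mean ± SD in black (n = 5 each). The p53-null arrays lie below the wild-type arrays for A_52_P491849 and U59758 and above them for TC1467208, while wild-type array 5 (open square) tops A_52_P781398 at 1.24.

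The genes around Trp53 were read as well. Within 150 kb of the 10-spot probe 22 probes were tested, of which 3 were higher and 1 was lower (18.2% called). The lower one was the Trp53 probe at the centre and the highest was TC1467208, chosen after its values were seen. Of the other 20 probes 2 were called (10%, against 7.11% of all tested probes). They were Mpdu1, needed for use of dolichol-linked mannose in glycosylation, at 0.46 ± 0.085 (adjusted p = 0.0205), and Sat2, named for its likeness to polyamine acetyltransferase, at 0.32 ± 0.081 (adjusted p = 0.0466). In fits that left out 1 array, Mpdu1 was called in 7 of 10 and Sat2 in 1 of 10. Of 15 listed neighbours of Trp53 that were tested, the same 2 genes were higher and none was lower (13.3% called, against 7.11% of all tested probes).

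**Figure D2:**
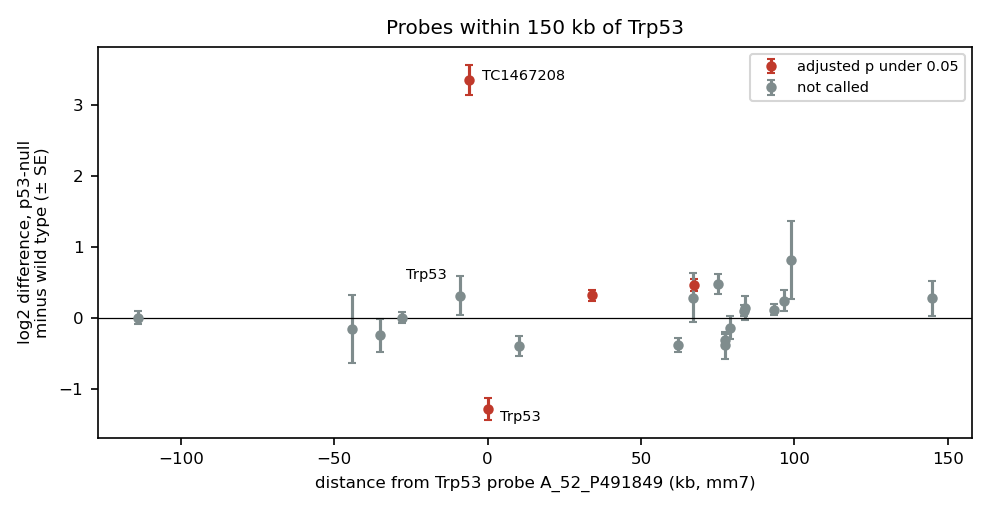
Log2 difference, p53-null minus wild type, with its SE (limma, n = 5 each), against distance in kb from Trp53 probe A_52_P491849 for the 22 tested probes within 150 kb, with called probes in red. The largest differences, 3.35 at TC1467208 and -1.28 at Trp53, lie within 10 kb of each other, and the other 20 probes lie between -0.40 and 0.81.

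Ppm1d gave the second call. Probe A_52_P26155 read -1.74, -1.48, -1.42, -1.55 and -1.26 on p53-null arrays and -0.67, -0.82, -0.47, -0.43 and -1.43 on wild-type arrays. Wild-type arrays 1 to 4 were above every p53-null array, and wild-type array 5 lay within the p53-null range. In p53-null lung the probe fell to 0.603 of the wild-type signal (log2 difference -0.73 ± 0.19, limma adjusted p = 0.0454). It was called in 1 of the 10 fits without 1 array, the one without wild-type array 5 (-0.89, adjusted p = 0.00126), and the adjusted p reached 0.119 in the others.

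The neighbouring Ppm1d probe A_51_P131526 read -1.84, -1.85, -1.85, -1.995 and -1.76 on p53-null arrays and -1.87, -1.74, -1.70 and -1.40 on wild-type arrays 1, 2, 4 and 5; the spot of wild-type array 3 was marked as an outlier by the scanner software and was left out. These ranges overlapped. The difference was -0.18 ± 0.11 (limma adjusted p = 0.308), with a 95% interval of -0.43 to 0.060, and without wild-type array 5 it was -0.091 (adjusted p = 0.429). Both probes are 35% G or C, and on wild-type array 5 the first was the lowest and the second the highest of the wild-type values. Within an array, the first minus the second was 0.10 to 0.50 on p53-null arrays, and on wild-type arrays it ran from -0.02 on array 5 to 1.27. The pair of probes thus did not give 1 result for the gene.

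The third Ppm1d probe, A_52_P521178 (chr11:85383682-85383741, plus strand), lies upstream of both and was not tested. Only p53-null arrays, 2 of the 5, had it well above background, with values of -7.39 to -6.67 on p53-null arrays and -9.17 to -8.05 on wild-type arrays. On most arrays these signals were not well above background, so no fold is given. The alternative fit without a filter on dim probes compared mostly background signal for A_52_P521178, so no test result is given for it. In that fit A_52_P26155, lower in p53-null lung, was not called (limma adjusted p = 0.0764).

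Other genes near Ppm1d on chromosome 11 were read for comparison. Of 12 tested neighbours from a list, 3 were lower and none was higher (25%, where 3.11% of all tested probes were lower). They were Med13, a subunit of the Mediator kinase module (-0.88 ± 0.16, adjusted p = 0.0188), Cltc, the clathrin heavy chain (-0.89 ± 0.18, adjusted p = 0.0251), and Ints2, an Integrator subunit (-0.41 ± 0.087, adjusted p = 0.0297), whose probes lie 0.921, 1.35 and 0.866 Mb from the called Ppm1d probe. Of the 10 fits without 1 array, Med13 was called in 7, Cltc in 2 and Ints2 in 2. Within 150 kb of it no other gene was called: the Appbp2 probes differed by 0.75 ± 0.35 (adjusted p = 0.192) and 0.37 ± 0.11 (adjusted p = 0.0595), and Bcas3 by -0.24 ± 0.15 (adjusted p = 0.333). Wild-type array 5 read -0.90 for Med13, where p53-null arrays read -1.28 to -1.03 and the other wild-type arrays -0.15 to -0.11. For Cltc it read 0.75, against 0.51 to 0.62 on p53-null arrays and 1.49 to 1.75 on the other wild-type arrays. For Ints2 it read 0.085, the highest wild-type value, against -0.55 to -0.29 on p53-null arrays. Further probes of Med13 gave -0.11, -0.12 and -0.03, and further probes of Cltc -0.73 and -0.11. Wild-type array 5 was therefore close to the p53-null values on single probes of Ppm1d, Med13 and Cltc, and not on Ints2, U59758 or TC1467208.

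Mdm2, the ubiquitin ligase of p53, was read by a 10-spot probe and a single-spot probe, and neither passed the test. The 10-spot probe A_51_P201346 (chr10:117204040-117204099, minus strand) read -2.51, -2.30, -2.82, -2.76 and -2.92 on p53-null arrays and -2.69, -2.86, -2.66, -2.56 and -2.15 on wild-type arrays. The groups overlapped over most of their range. The difference was -0.077 ± 0.16 (limma adjusted p = 0.799), with a 95% interval of -0.43 to 0.28, and its spots varied within an array by an SD of 0.047 to 0.10. The second probe, A_52_P469842 (chr10:117200593-117200652, minus strand), differed by 0.053 ± 0.10 (adjusted p = 0.787), with an interval of -0.18 to 0.28. Deviations of the 2 probes from their group means correlated at 0.81 over the 10 arrays, which share their RNA and their array. A difference of -0.73, the size found for the called Ppm1d probe, lies outside both intervals. The 95% interval of that Ppm1d probe, -1.14 to -0.32, overlapped that of A_51_P201346 and not that of A_52_P469842. The other tested Ppm1d probe, at -0.18, lay within the interval of A_51_P201346.

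The promoter windows of Mdm2 and Ppm1d, the feedback genes of p53, were searched for the 10-letter p53 consensus decamer. Windows of 300 bases, from 250 before to 50 after the annotated start, came from RefSeq (GRCm38.p6) and were found for 5 of the 6 genes, 7 windows in all. The motif is its own reverse complement, so a match counts on both strands. It occurred in 8.36% of 32851 windows, and in 3 of these 7: those of Mdm2, Ppm1d and Trp53, starting 186, 132 and 75 bases before the start. The first pair is shown because one gene had a called probe and the other did not; capitals mark the decamer. The decamer is a half-site, so 1 match is not a full p53 site. Sequence outside these windows was not searched, and a match describes letters only.
Mdm2 chr10:117710709-117711008 minus: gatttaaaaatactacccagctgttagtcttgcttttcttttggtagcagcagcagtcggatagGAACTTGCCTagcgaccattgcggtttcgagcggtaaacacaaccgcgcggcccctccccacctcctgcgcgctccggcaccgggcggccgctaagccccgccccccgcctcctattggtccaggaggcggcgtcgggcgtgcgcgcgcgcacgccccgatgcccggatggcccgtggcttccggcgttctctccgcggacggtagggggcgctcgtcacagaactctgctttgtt
Ppm1d chr11:85311004-85311303 plus: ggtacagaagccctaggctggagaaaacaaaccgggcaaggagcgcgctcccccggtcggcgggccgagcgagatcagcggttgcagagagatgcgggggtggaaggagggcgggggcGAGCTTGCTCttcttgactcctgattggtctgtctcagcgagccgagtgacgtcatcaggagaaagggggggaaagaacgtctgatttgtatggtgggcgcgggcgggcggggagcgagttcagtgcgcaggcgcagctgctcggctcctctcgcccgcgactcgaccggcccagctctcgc

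Mdm4 had 5 tested probes, and none was called with all arrays. Probe A_51_P258566 (chr1:132887929-132887988, minus strand) read -0.21, -0.06, -0.31, -0.38 and -0.43 on p53-null arrays and -0.48, -1.05, -0.71, -0.61 and -0.44 on wild-type arrays. All p53-null values were higher than all wild-type values, the closest pair being 0.0078 apart. The difference was 0.38 ± 0.13 (limma adjusted p = 0.0903), and without wild-type array 5 it was 0.44 (adjusted p = 0.0294). With the GC trend also removed, it was 0.36 and not called (adjusted p = 0.0678).

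Probe A_51_P176954 of Mdm4 (chr1:132902236-132902295, minus strand) read -2.24, -2.65, -2.63, -3.33 and -2.59 on p53-null arrays and -3.29, -3.41, -3.76, -3.40 and -2.60 on wild-type arrays. The groups overlapped through p53-null array 4, which was low, and wild-type array 5, which was high. The difference was 0.60 ± 0.24 (limma adjusted p = 0.14), and without wild-type array 5 it was 0.78 (adjusted p = 0.0198). With the GC trend also removed, it was 0.64 (adjusted p = 0.0416). The other 3 probes lie between these on the minus strand. A_52_P174937 (chr1:132891743-132891802) differed by 0.11 ± 0.20, A_52_P485905 (chr1:132892750-132892809) by 0.043 ± 0.16 and A_52_P596201 (chr1:132889550-132889609) by -0.15 ± 0.14. Their adjusted p-values were 0.782, 0.896 and 0.534, and none was called without wild-type array 5. The 5 probes thus gave 2 positive differences with intervals above 0 before adjustment (0.098 to 0.67 and 0.070 to 1.14) and 3 whose intervals spanned 0. Deviations of the probes correlated at 0.25 to 0.94 over 10 arrays.

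**Figure D3:**
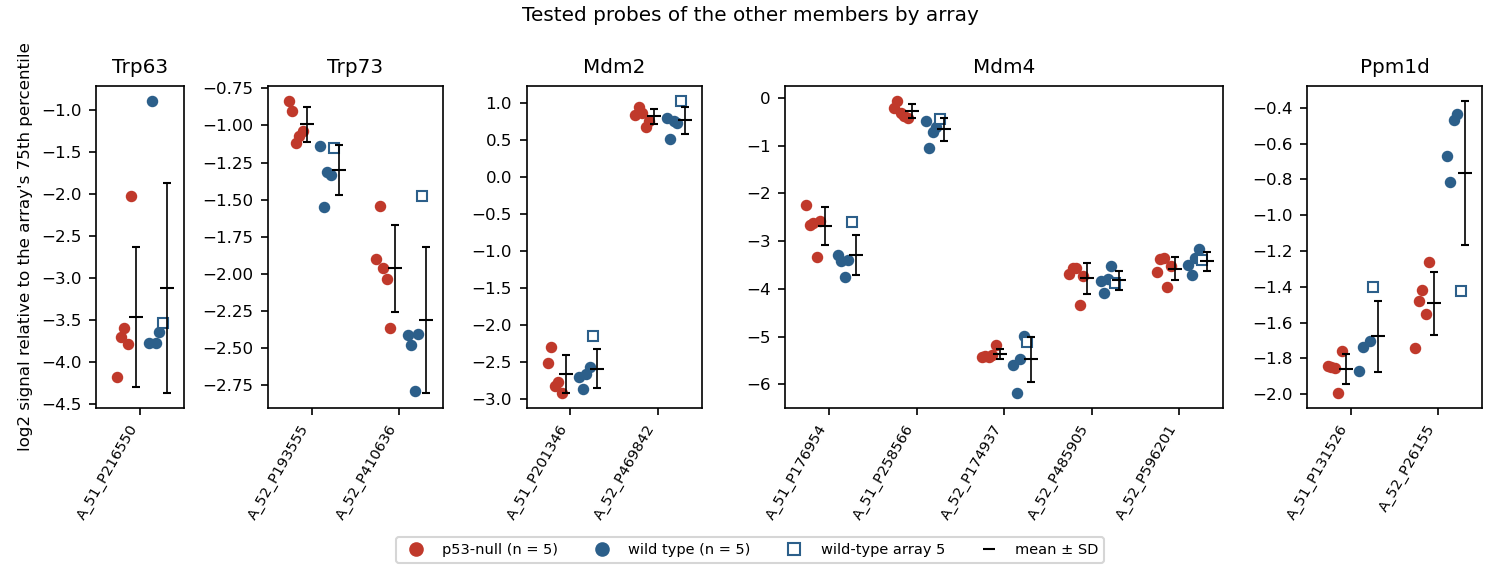
Log2 signal relative to the 75th percentile of each array for the tested probes of Trp63, Trp73, Mdm2, Mdm4 and Ppm1d, with p53-null arrays left of wild-type arrays, 1 point per array and mean ± SD in black (n = 5 each, and 4 wild-type arrays for Ppm1d A_51_P131526); each panel has its own axis. Wild-type array 5 (open square) lies at the p53-null level in Ppm1d A_52_P26155, and Trp63 stands out on 1 array of each genotype.

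Trp73 had 2 tested probes, both with higher means in p53-null lung and neither called. A_52_P193555 (chr4:153045876-153045935, minus strand) read -0.83, -0.90, -1.12, -1.07 and -1.04 on p53-null arrays and -1.14, -1.55, -1.31, -1.34 and -1.16 on wild-type arrays. The ranges did not overlap, though the nearest arrays of the groups were 0.017 apart. The difference was 0.31 ± 0.10 (limma adjusted p = 0.089), and without wild-type array 5 it was 0.34 (adjusted p = 0.031). A_52_P410636 (chr4:153048476-153048535, minus strand) read -1.90, -1.54, -1.96, -2.04 and -2.36 on p53-null arrays and -2.41, -2.48, -2.79, -2.40 and -1.47 on wild-type arrays. Wild-type array 5 was the highest of all 10, and the other wild-type arrays were below every p53-null array. The difference was 0.35 ± 0.24 (adjusted p = 0.373), and without wild-type array 5 it was 0.56 (adjusted p = 0.0277). With the GC trend also removed, it was 0.33 and not called.

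Markers of multiciliated cells, which need p73, were set beside Trp73. Of 21 tested, 1 was higher and none was lower in p53-null lung (4.76% called, below the 7.11% of all tested probes). That gene was Myb, a transcription factor with a role in ciliated cells and in lymphocytes, at 0.60 ± 0.13 (adjusted p = 0.0293), called in 2 of the 10 fits without 1 array; its further probes gave 0.69, 0.17 and -0.16. The mean multiciliated score was 0.036 ± 0.046 in p53-null lung and -0.036 ± 0.17 in wild-type lung (SD, n = 5 each), and its median difference per gene was 0.096. The scores of the groups overlapped, and wild-type array 1 had the highest, 0.24.

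Trp63 had 1 tested probe, and 2 arrays stood above the rest. A_51_P216550 (chr16:25553466-25553525, plus strand) read -4.19, -3.71, -3.61, -3.80 and -2.03 on p53-null arrays and -3.78, -0.89, -3.78, -3.64 and -3.54 on wild-type arrays. The high arrays were p53-null array 5 and wild-type array 2, and the other 8 arrays lay between -4.19 and -3.54. The difference was -0.34 ± 0.60 (limma adjusted p = 0.763), with a 95% interval of -1.68 to 1.004, and without wild-type array 2 its sign turned (0.22). The other Trp63 probes, A_52_P17264 (chr16:25526842-25527619) and A_52_P338796 (chr16:25529172-25529231), were not well above background on any array and were not tested.

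Many, though not all, genes of basal cells, which p63 marks, were high on the same arrays. Of 13 basal markers above background on at least 1 array, 8 had p53-null array 5 as the highest p53-null array and wild-type array 2 as the highest wild-type array, and for Krt17 and Lamb3 neither was. Krt17, a basal keratin, read -1.50 on p53-null array 5 and -1.98 on wild-type array 2, against -1.22 on p53-null array 2 and -1.52 on wild-type array 5. The basal airway cell score was 0.96 on p53-null array 5 and 1.46 on wild-type array 2, and between -0.57 and -0.09 on the other 8. The squamous epithelial score was 3.31 and 4.30 on those arrays and at most -0.47 on the others. Krt5, the basal keratin, read 2.13 on p53-null array 5 and 3.69 on wild-type array 2, and at most -0.90 elsewhere. Krt14, its partner, read 0.21 and 1.32 there and at most -1.998 elsewhere. Among the basal markers Dsc3 was nowhere above background, and Dsg3, a desmosomal cadherin of stratified epithelia, was above it on 2 arrays. Of 12 tested basal markers 1 was lower in p53-null lung (8.33%, where 7.11% of all tested probes were called), the laminin receptor subunit Itga6 (-0.61 ± 0.084, adjusted p = 0.00958), which is also widely expressed outside basal cells; of 10 squamous markers none was called. The part of sampled airway or other epithelium in the Trp63 values was not tested.

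**Figure D4:**
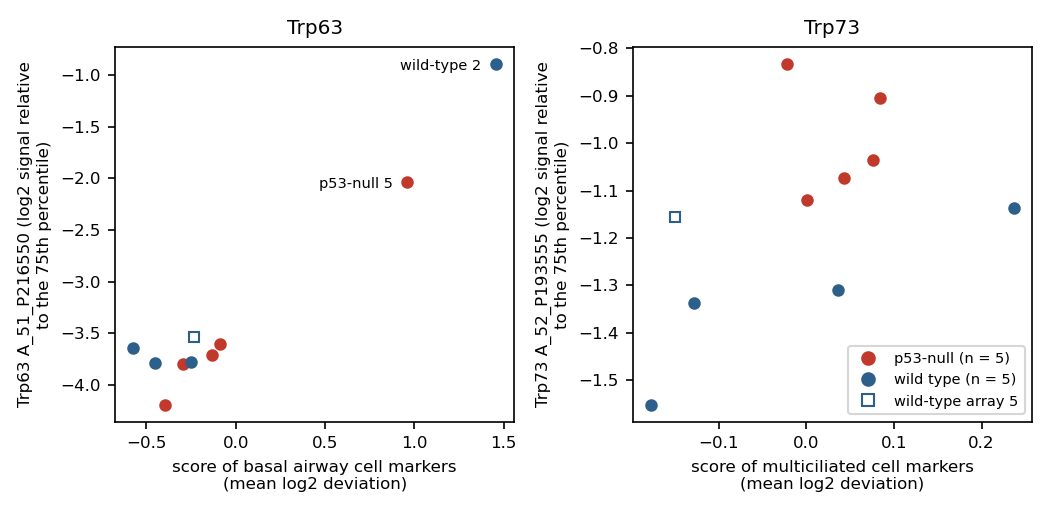
Log2 signal of Trp63 probe A_51_P216550 against the basal airway cell score (left) and of Trp73 probe A_52_P193555 against the multiciliated cell score (right), scores being mean log2 deviations of the marker genes from their means over the arrays, 1 point per array. In the left panel p53-null array 5 and wild-type array 2 stand alone at high Trp63 and high score, and in the right panel the 5 p53-null arrays lie above the 5 wild-type arrays at overlapping scores.

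The genes whose pattern over the 10 arrays was most like that of each member's brightest tested probe were listed by Pearson correlation of deviations from the group means. These are descriptions, with arrays shared by every point. For Trp63 they were Etnk2, Trim29 and Serpinb3c (r = 0.99 each, and 0.92, 0.84 and 0.75 without wild-type array 2 and p53-null array 5). For the upstream Trp53 probe they were Coq4, Jazf1 and Ammecr1l (r = 0.99 each, and 0.92 to 0.96 without wild-type arrays 2 and 5). For Ppm1d they were Nsd3, Cldn12 and Trpm7 (r = 0.99 each, and 0.94 to 0.99 without wild-type array 5 and p53-null array 1). Those of Trp73, Mdm2 and Mdm4 reached 0.94, 0.96 and 0.95, for Tnfrsf21, Rcbtb2 and Tmem80; next came Cnot1 and Trerf1 for Trp73, Exoc2 and Tha1 for Mdm2, and Eri2 and Dop1a for Mdm4.

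Genes that act upstream of p53 or bind it, and genes that p53 induces, were read from lists. Of 43 tested upstream regulators and partners, 2 were higher and none was lower in p53-null lung (4.65% called, below the 7.11% of all tested probes). Cdkn2a, whose ARF product sequesters Mdm2 and whose other product is the cell-cycle inhibitor p16, was read by a 10-spot probe. It read -4.57, -3.99, -4.86, -4.82 and -5.34 on p53-null arrays, all well above background, and -7.29, -6.02, -7.20, -6.24 and -6.43 on wild-type arrays, of which 3 were. Every p53-null array was higher, and wild-type array 5 was within the wild-type range. The difference was 1.92 ± 0.31 (limma adjusted p = 0.0143), and its size rests in part on wild-type signals that were not well above background. Kat5, the acetyltransferase Tip60 that modifies p53, was higher by 0.42 ± 0.094 (adjusted p = 0.0333), called in 1 of the 10 fits without 1 array. The median difference of this list was -0.0069.

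Of 39 tested p53 target genes, 7 were lower and 2 were higher in p53-null lung, with a median difference of -0.093 (23.1% called, against 7.11% of all tested probes). The apoptosis-linked nuclease gene Aen (-0.58 ± 0.081), the RNA-binding protein gene Zmat3 (-0.63 ± 0.098), the cyclin G1 gene Ccng1 (-0.80 ± 0.14), the receptor gene Eda2r (-2.62 ± 0.22) and the spindle gene Psrc1 (-1.62 ± 0.13) were called in all 10 fits without 1 array. Eda2r was well above background on 4 of the p53-null arrays. Cdkn1a, encoding the cell-cycle inhibitor p21 (-1.07 ± 0.20), and Phlda3, encoding an Akt inhibitor (-0.47 ± 0.10), were called in 6 and 3 of them. Ptprv, a phosphatase gene, was higher (1.999 ± 0.49) and kept its call in 2, with 3 wild-type arrays well above background. Wild-type array 5 read -2.27 for Psrc1 and -3.66 for Eda2r, where the other wild-type arrays read -2.30 to -1.92 and -4.39 to -3.89 and the p53-null arrays -4.16 to -3.60 and -7.35 to -6.24. On Psrc1 and Eda2r it read with the wild-type arrays. For Ccng1 it read 1.67, against 1.09 to 1.45 on p53-null arrays and 2.04 to 2.39 on the other wild-type arrays. For Cdkn1a it read 1.85, against 1.11 to 1.48 on p53-null arrays and 2.09 to 3.02 on the other wild-type arrays. On both it was the wild-type value nearest to the p53-null range. Among the p53-induced feedback genes, Mdm2 was not called and 1 of 2 tested Ppm1d probes was.

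**Figure D5:**
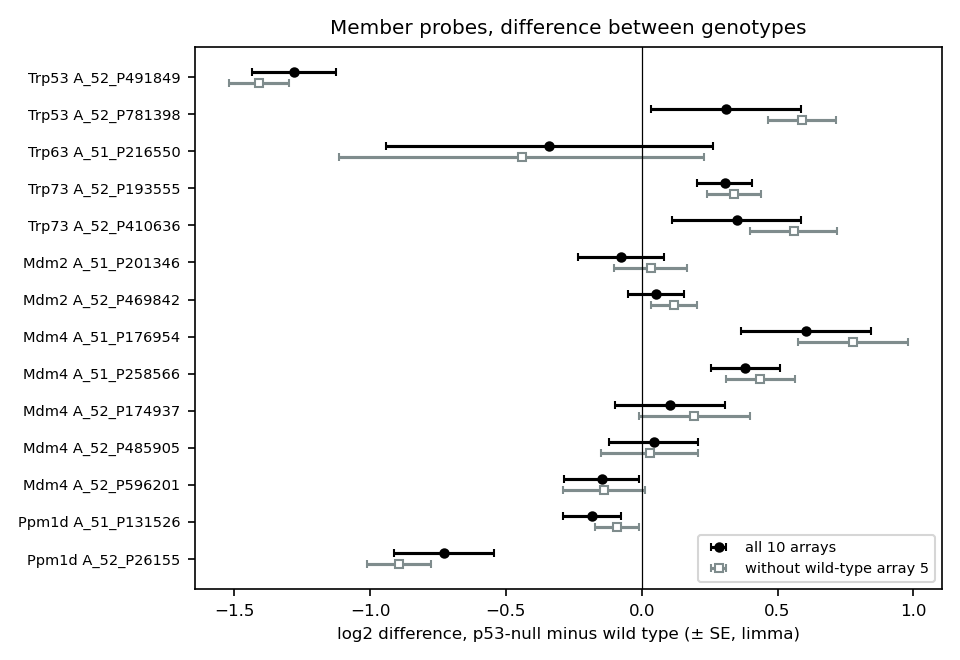
Log2 difference, p53-null minus wild type, with its SE (limma) for the 14 tested member probes, from all 10 arrays (filled circles) and without wild-type array 5 (open squares). With all arrays only Trp53 A_52_P491849 at -1.28 and Ppm1d A_52_P26155 at -0.73 passed the test, where 7.11% of all tested probes did. Without wild-type array 5, 7 probes passed, among them Trp73 and Mdm4 probes above 0, where 30.7% of all tested probes did.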

How the data were processed

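Per the labels' protocols, 500 ng of lung RNA per mouse was labelled with Cy3. The submitters' processing notes name Agilent Feature Extraction 9.5 for the scans, and per the file headers the deposited intensity of a spot has had its background and a spatial trend removed. The deposited value table held the same intensity values (largest difference 0), with column medians of 250.0 to 452, so it is linear, uncentred and unscaled.

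The 43379 non-control spots of an array set its 75th percentile, which was subtracted on the log2 scale; outlier spots were dropped and spots of a probe averaged. Limma 3.58.1 (lmFit, eBayes; R 4.3.3) was fitted to probes well above background on 5 or more of 10 arrays, and p-values were adjusted by Benjamini-Hochberg with a threshold of 0.05. A list's gene was read by its brightest probe. Scores are mean log2 deviations over a list. The code was tested on simulated data.

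Every member probe is named, with the 4 called genes of lowest p in each list (8 for p53 targets), the lowest 2 where none was called, and the 3 most alike genes of each member. Members and lists were chosen with earlier results of these data known. Replicate numbers did not pair the arrays (correlations of -0.23 to 0.01). Alternatives covered background, scaling, filter, the slide and its number range, the day of scanning, replicate number, weights, variance model, thresholds, probe choice for lists, single arrays and, added after the data were seen, probe GC content.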

Additional observations from a re-analysis of the deposited data

Results flagged for a closer look

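In 17 of 126 groups of values examined, the highest or lowest array lay far from the other arrays of its genotype by Dixon's test; chance gives about 1 in 20. Of the members, the upstream Trp53 probe A_52_P781398 read 1.24 on wild-type array 5, and the Trp63 probe A_51_P216550 read -2.03 on p53-null array 5 and -0.89 on wild-type array 2. The Trp63 probe A_52_P338796, nowhere above background, read -10.39 on wild-type array 3. Mdm4 read -5.18 on p53-null array 5 by A_52_P174937 and -4.34 on p53-null array 4 by A_52_P485905.

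The basal airway score was 0.96 on p53-null array 5 and 1.46 on wild-type array 2, and the squamous score was 3.31 and 4.30 on the same arrays. The skeletal muscle score was 2.97 and 2.89 on p53-null arrays 4 and 5, and 3.98 on wild-type array 2. Ptprv read -2.62 on p53-null array 5, Spib, a B cell transcription factor gene, 0.79 on p53-null array 1, and Psrc1 -1.92 on wild-type array 1. Wild-type array 5 stood apart for Med13 (-0.90), Cltc (0.75) and the endothelial cadherin gene Cdh5 (3.75).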

How the results depend on the processing

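The 10-spot Trp53 probe was lower in p53-null lung under all 27 alternatives and called under 22. The 5 without a call were the replicate block (-1.28, adjusted p = 0.118), slide as a fixed block (-1.56), the higher and lower slide number ranges (-1.50 and -1.14), and leaving out p53-null arrays 4 and 5 together with wild-type array 2 (-1.37); the last 4 compare fewer arrays or rest on 1 p53-null array, and the cause was not tested. The Ppm1d probe was lower under all 27 and called under 9. Member calls were 2 of 14, where 2247 of 31588 probes were called. With array weights they were 6 (9522 probes called), and without wild-type array 5 and the GC trend 4 (7786). They were 1 with median scaling (651), scan day (450) or slide range (1018) as a block, or adjusted p under 0.01 (88). None was called with the replicate block (32), the fixed slide block (0), within the lower slide range (19) or without the 3 arrays (12). When 1 array was left out they ran from 1 to 7. The 7 came without wild-type array 5, where 30.7% of all probes were called.

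Probe calls, 2247, were 9522 with array weights, 7786 without wild-type array 5 and the GC trend, 1168 at 1.5-fold or more, 1018 with slide range as a block, 748 without a filter, 651 with median scaling, 450 with scan day as a block, 88 at adjusted p under 0.01, 32 with the replicate block, 19 within the lower slide range and 12 without the 3 arrays. They ran from 303 (without p53-null array 3) to 9682 (without wild-type array 5). Limma called 0 with the fixed slide block and within the higher slide range, where unadjusted p was under 0.05 for 1595 and 4115 probes.

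Signs turned for probes not called: Trp63 A_51_P216550 (0.0024 within the higher slide range; -0.70 to 0.22 with 1 array left out), Mdm2 A_51_P201346 (0.26 fixed slide, 0.31 higher range, -0.17 to 0.032 with 1 array left out), Mdm2 A_52_P469842 (-0.034 median scaling, -0.011 to 0.12 with 1 array left out), Mdm4 A_52_P174937 (-0.070 quantile scaling, -0.42 fixed slide, -0.17 higher range, -0.13 without the 3 arrays, -0.074 to 0.23 with 1 array left out), Mdm4 A_52_P485905 (-0.029 weights, -0.043 median and -0.054 quantile scaling, -0.025 fixed slide, -0.021 to 0.18 with 1 array left out), Ivl (0.60 higher range) and Hopx (0.059 fixed slide). Where 1 group keeps 1 array, that array is assumed to vary like the others. Slide 5 alone held both genotypes, wild-type array 3 alone made up its scan day, and probes near background have only a bound.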

Other observations

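AK076480, an unnamed transcript that the files describe as related to Trp73, was well above background on 1 array of each genotype and was not tested. It read -9.33 to -6.58 on p53-null arrays and -9.32 to -6.29 on wild-type arrays.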
